A study of Mus musculus with 4 samples.

Results

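The genes described here encode cytosolic ribosomal proteins, the protein part of the ribosomes that translate nuclear messages. They were chosen by symbol, as Rpl, Rplp or Rps followed by a number with at most a paralogue ending, a pattern that leaves out the Rps6k kinases. Of 18193 genes with a probe set that named 1 gene only, 48 matched, 26 of the large and 22 of the small subunit, and they held 103 such probe sets. The RefSeq gene table lists 83 protein-coding mouse genes that match the same pattern, and 36 of these had no probe set naming them alone, among them the genes Rpl3, Rpl5, Rpl10, Rpl23, Rpl26 and Rplp1. Each gene was read from its probe set of highest mean over the arrays, and 45 of the 48 genes were bright enough to be tested. The other 3, Rpl3l, a muscle paralogue of Rpl3, Rps4l and Rps16, lay below 5 on every array, under the signal of 27.3 that was asked for, and their probe sets gave no usable value.

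The study sorted CD4+ T cells from the lamina propria of the large intestine, after digestion with collagenase, into 2 populations. GFP-positive cells (2 arrays) were set against GFP-negative cells (2 arrays), both from mice of mixed 129/B6 background that were heterozygous for a GPR15-GFP knock-in, so all cells of both groups carried the knock-in allele, and GFP reported which of them used the Gpr15 locus. The receptor Gpr15 is known to bring T cells into the wall of the colon. Total RNA was measured on Affymetrix mouse arrays that give 1 signal per probe set, on a linear scale. The labels give no age and no number of mice. Sex-linked signals, given with the other checks at the end, differed between the 2 arrays of each group, so the spread that a p-value is set against here includes a difference between RNA of female and male mice. The description of the series writes the negative cells once as lacking CD4, while the titles and labels give CD4+ T cells for both groups. Cd4 read 540 and 533 in GFP-positive cells, against 501 and 587 in GFP-negative cells.

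Ribosomes join a small subunit, which reads the message, to a large subunit, which makes the peptide bonds, and cells make the proteins of both in matched amounts. Most of their messages begin with a C followed by a run of pyrimidines at the cap, the terminal oligopyrimidine or TOP element, through which the kinase complex mTORC1 and the RNA-binding protein Larp1 control their translation. T cells are known to raise ribosome production when they are activated, through mTORC1 and Myc.

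The start sites of the genes are shown because this run is the feature that ties them together as a regulatory family. Each line holds 30 bases of RefSeq sequence (build GRCm38.p6), 15 on each side of the annotated transcription start on the gene's strand, so that the 16th base is the first base of the transcript. Capitals mark the longest unbroken run of C and T that begins with C. The first 4 genes have a long run near the start, Rps27l is the gene with the highest difference, and the last 3 are among the genes with the lowest differences. Low genes not shown can have long runs, with 8 bases in Rpl39, the lowest of all, and 14 in Rpl14.
Rps6 (small subunit, chr4:86857353-86857382, minus strand): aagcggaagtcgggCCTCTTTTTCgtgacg
Rps10 (small subunit, chr17:27635230-27635259, minus strand): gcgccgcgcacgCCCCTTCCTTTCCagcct
Rps18 (small subunit, chr17:33955651-33955680, minus strand): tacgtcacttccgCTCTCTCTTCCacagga
Rplp2 (stalk, chr7:141447636-141447665, plus strand): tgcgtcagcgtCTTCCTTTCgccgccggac
Rps27l (small subunit paralogue, chr9:66946071-66946100, plus strand): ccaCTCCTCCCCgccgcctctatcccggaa
Rps25 (small subunit, chr9:44407699-44407728, plus strand): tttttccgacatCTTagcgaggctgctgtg
Rpl41 (large subunit, chr10:128549154-128549183, minus strand): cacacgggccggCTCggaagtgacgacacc
Rplp0 (stalk base, chr5:115559452-115559481, plus strand): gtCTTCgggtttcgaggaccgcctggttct
A RefSeq start was given for 42 of the 48 genes. A C-led run of at least 7 pyrimidines lay on the strand within the 30 bases of a listed start in 22 of 42. This was 52.4%, against 16.4% of 27025 genes in the same table. The run could lie anywhere in the window and need not begin at the cap. In Rps27l, Rpl4, Rpl10a, Rpl19 and Rpl39l the run ended before the annotated start. In Rpl39, Rps26, Rpl13a, Rpl22l1 and Rps19 it began after the first base. The count thus does not sort TOP messages from others. The word CCGGAAG, searched on both strands of the 300 bases around the start, was found in 20 of the 42 (47.6%), against 9.93% of all genes. On the other strand this word reads CTTCCGG and can share bases with a pyrimidine run. The 22 tested genes with a run had a median log2 difference of −0.19 and a range of −0.82 to 0.67, and the 18 tested genes without one had a median of −0.25 and a range of −0.67 to 0.43, which lies within the range of the first. A match describes these letters only.

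Signals of the ribosomal protein genes were a little lower in GFP-positive cells, by an amount that no single gene carried past the test. Differences are given here as log2(signal + 16) in GFP-positive minus GFP-negative cells, a scale that understates the change of dim genes. The median over the 45 tested genes was −0.20, against 0.075 over 12252 tested genes. None of the 45 reached an adjusted p of 0.05 by limma with Benjamini-Hochberg adjustment over all tested genes, a threshold passed by 4 genes in all (0.0326%). The smallest adjusted p among the ribosomal protein genes was 0.282 for Rps27l. At an unadjusted p under 0.05, limma gave 2 of them lower (Rpl41 and Rps25), where 4.37% of all tested genes were lower at that level, and 1 higher (Rps27l), where 10.2% were higher.

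The direction was shared more than the size. The difference was below 0 for 42 of the 45 genes, against 42.3% of all tested genes, and the exceptions were Rps27l, Rpl37 and Rpl39l. In 22 of the 45, or 48.9%, both GFP-positive arrays lay below both GFP-negative arrays, against 18.7% of all tested genes, and in Rps27l alone both lay above, against 28.7%. Large subunit genes had a median of −0.19 with 12 of 25 lower without overlap, and small subunit genes had a median of −0.21 with 10 of 20. The counts of the subunits were thus alike. Under other scalings of the arrays the median over the 45 genes was −0.15 (quantile), −0.12 (cyclic loess) and −0.18 (added control RNAs), and it stayed below the median of all genes. Median scaling shifted all genes down, to a median of −0.20, and the 45 genes to −0.52.

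The size of the shortfall was not the same in the 2 pairs of equally numbered arrays. Within replicate 1 the median difference was −0.044 and 24 of the 45 genes were below 0, against 43.4% of all tested genes. Within replicate 2 the median was −0.40 and 41 of the 45 were below 0, against 45% of all tested genes. Both were below 0 in 23 genes, against 26.4%. The GFP-positive array of replicate 2 was the lowest of the 4 for 36 of the 45 genes, where it was the lowest for 21.3% of all tested genes. Without that array the median over the 45 genes was −0.10, and without the GFP-positive array of replicate 1 it was −0.35. The plot of the genes by replicate number shows the filled points of replicate 2 left of zero nearly throughout and the open points of replicate 1 on both sides of it.

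**Figure D1:**
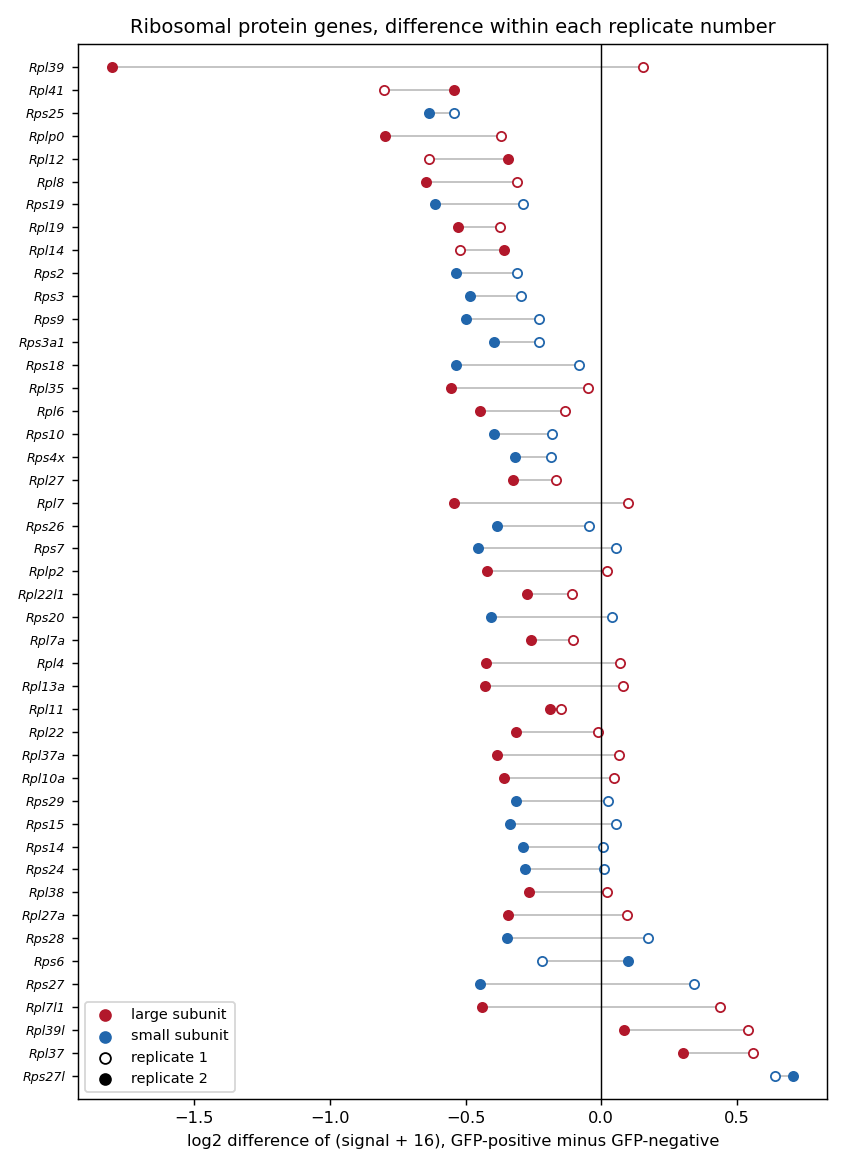
Log2 difference (GFP-positive minus GFP-negative) of the 45 tested ribosomal protein genes within replicate 1 (open points) and replicate 2 (filled points), ordered by the mean difference with the lowest at the top and coloured by subunit. In replicate 2, 41 genes lie below 0, and in replicate 1, 24 do. Rps27l, at the bottom, is above 0 in both.

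These genes are among the brightest on the arrays, and bright genes as a whole had lower differences than dim ones. When the tested genes were cut into 10 bins of equal size by mean signal, the median difference was 0.26 in the dimmest bin, 0.075 in the sixth and −0.075 in the brightest, which began at a signal of 1161. Of the 45 ribosomal protein genes, 35 lay in that brightest bin. All 35 had a difference below 0, with a median of −0.20 (−0.049 within replicate 1 and −0.40 within replicate 2). The other 1191 genes of the bin had a median of −0.067 (0.013 within replicate 1 and −0.14 within replicate 2). The 200 brightest of these had −0.039 (0.098 within replicate 1 and −0.18 within replicate 2). Groups did not overlap and GFP-positive cells were lower in 19 of the 35, against 32.8% of the whole bin, and 0 of the 35 were higher without overlap, against 16.8%. Within replicate 2 all 35 were below 0, where 72.3% of the bin were, and within replicate 1 20 of them, where 47.5% were. The part of the brightness trend in the result was not tested beyond these values. In the plot against brightness the ribosomal protein genes form a band under the line of medians at the right-hand end.

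**Figure D2:**
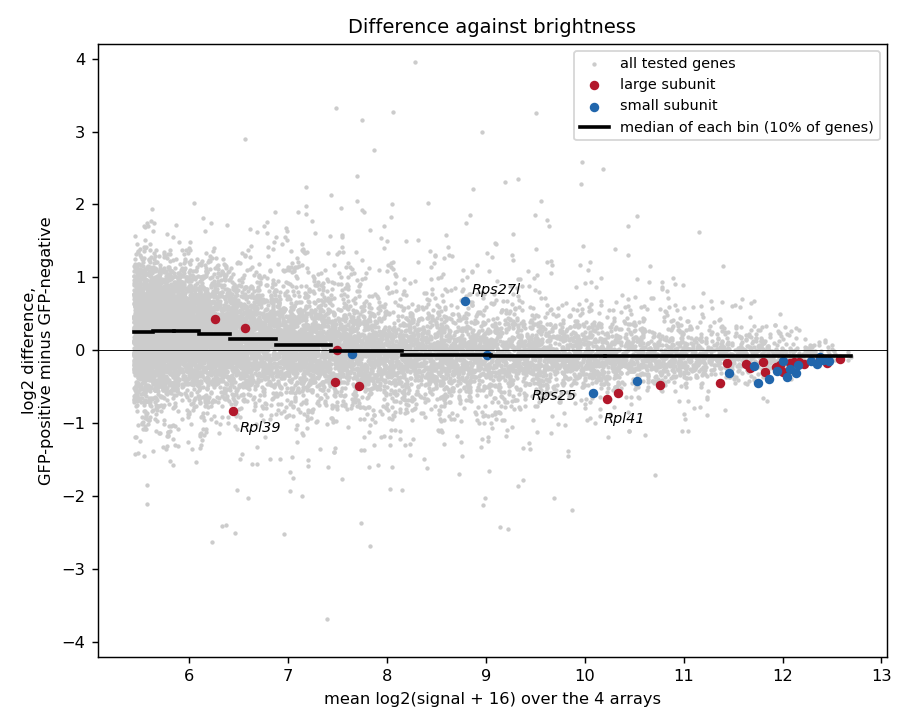
Log2 difference (GFP-positive minus GFP-negative, vertical) against mean log2(signal + 16) over the 4 arrays (horizontal) for 12252 tested genes in grey, with ribosomal protein genes in colour and the median of each of 10 equal bins as a black line. The 35 ribosomal protein genes of the brightest bin all lie below 0, at a median of −0.20 where the bin as a whole has −0.075.

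Control RNAs that are added to each hybridisation moved with the arrays. The 18 control probe sets (BioB, BioC, BioD and cre) were higher on average by 0.18 (log2 signal) on the GFP-positive array of replicate 1 and lower by 0.23 on that of replicate 2, each against the GFP-negative array of the same number. All 18 were below 0 in replicate 2 and 1 of 18 in replicate 1. Mean levels of the 35 bright ribosomal protein genes, as log2(signal + 16), were 11.83 and 11.59 in GFP-positive cells, against 11.93 and 12.01 in GFP-negative cells. The controls averaged 11.23 and 10.99 (log2 signal) with GFP-positive RNA, against 11.05 and 11.22 with GFP-negative RNA. Their lowest array was thus also the lowest array of the genes, while the GFP-positive array of replicate 1 was the highest for the controls and lay below both GFP-negative arrays for the genes. When each array was scaled to these controls, an alternative chosen after seeing the data, the median over the 45 genes was −0.18, with −0.23 within replicate 1 and −0.17 within replicate 2, and 31 of the 45 were lower and 1 higher without overlap, against 14.7% and 28.1% of all tested genes on that scale. The values of the 45 genes within the 2 replicate numbers were closer on that scale than without it. This follows from 1 factor per array, which moves all genes of an array alike. Over all tested genes the medians without it were alike, at 0.074 within replicate 1 and 0.063 within replicate 2, and the same factors move these apart. The values of the 45 genes were also closer under quantile (−0.10 and −0.22) and cyclic loess normalization (−0.048 and −0.22).

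**Figure D3:**
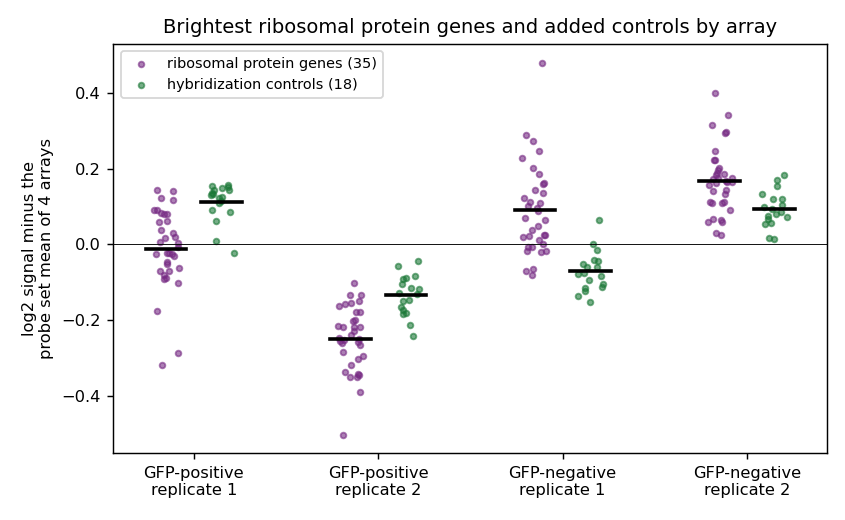
Log2 level minus its mean over the 4 arrays for the 35 ribosomal protein genes of the brightest bin (purple) and 18 hybridization control probe sets (green), by array, with black bars at the means. The GFP-positive array of replicate 2 is lowest for both, and the GFP-positive array of replicate 1 is above its mean for the controls and near it for the genes.

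Rps27l was the one gene that was higher without overlap. It encodes a close paralogue of the small subunit protein Rps27 and is known in human cells as a target of p53. Its signal was 574 and 510 in GFP-positive cells, against 363 and 306 in GFP-negative cells. Both GFP-positive arrays were above both GFP-negative arrays, and the difference was 0.67 (95% interval 0.13 to 1.22, unadjusted p 0.0237, adjusted p 0.282 by limma), which did not pass the test. Over the other settings tried the difference lay between 0.37 (median scaling) and 0.79. The gene had 3 probe sets of its own. They gave differences of 0.64, 0.69 and 0.84 within replicate 1 and 0.71, 0.59 and 0.85 within replicate 2, so all agreed in direction and were close in size. Its partner Rps27 read 281 and 114 in GFP-positive cells, against 218 and 162 in GFP-negative cells, with a difference of −0.053 (−1.10 to 0.99) and opposite signs in the 2 replicate numbers. No test of the paralogue against its partner was made.

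Rpl41 encodes a very small basic protein of the large subunit that lies at the face toward the small one. It read 944 and 923 in GFP-positive cells, against 1656 and 1351 in GFP-negative cells, a difference of −0.67 (−1.22 to −0.12, adjusted p 0.284 by limma). The groups did not overlap. Its 4 probe sets did not agree, however. A second one gave −0.85 and −0.41 in the 2 replicate numbers, another −0.016 and −0.27, and the dimmest 0.19 and −0.19. The mean over its probe sets was −0.36. The plot by probe set shows 2 low probe sets of Rpl41 and 2 near level ones, beside the like values of all Rps27l probe sets.

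**Figure D4:**
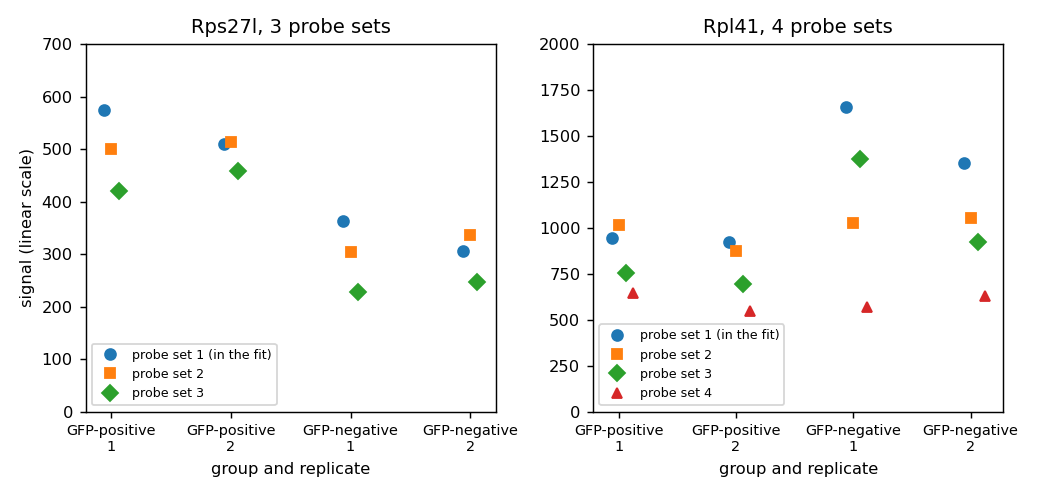
Signal (linear scale) of each probe set of Rps27l (left) and Rpl41 (right) on the 4 arrays, GFP-positive left of GFP-negative, with the replicate number under each group. All 3 Rps27l probe sets are higher on both GFP-positive arrays, while of the 4 Rpl41 probe sets those marked 1 and 3 are clearly lower there and those marked 2 and 4 are close to level.

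Rps25, a small subunit protein known for its need in initiation at some viral internal entry sites, read 840 and 895 in GFP-positive cells, against 1229 and 1397 in GFP-negative cells. The groups were well apart and the difference of −0.59 (−1.11 to −0.062, adjusted p 0.315 by limma) was nearly the same within replicate 1 (−0.54) and replicate 2 (−0.63). Rps25 had 1 probe set. Its lowest array was the GFP-positive one of replicate 1, not that of replicate 2 as for most of the genes.

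The stalk of the large subunit, made of Rplp0 and pairs of Rplp1 and Rplp2, recruits the elongation factors. Rplp0, its base, read 1208 and 897 in GFP-positive cells, against 1565 and 1571 in GFP-negative cells, a difference of −0.58 (−1.17 to 0.0075, adjusted p 0.345 by limma) with no overlap, and of −0.37 without the GFP-positive array of replicate 2. Rplp2 read 4186 and 3354 in GFP-positive cells, against 4122 and 4499 in GFP-negative cells, and its groups overlapped (−0.20, with 0.022 within replicate 1 and −0.42 within replicate 2). Rpl12, which sits beside Rplp0 where the stalk joins the ribosome, read 151 and 172 in GFP-positive cells, against 243 and 222 in GFP-negative cells, a difference of −0.49 (−1.02 to 0.038) with no overlap. The base of the stalk was thus among the lowest values and Rplp2 near the median of the genes.

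Other large subunit genes with low values were Rpl8, close to the site where peptide bonds form, and Rpl19, which helps to bridge the subunits. Rpl8 read 1524 and 1392 in GFP-positive cells, against 1894 and 2189 in GFP-negative cells (−0.48, −1.01 to 0.056). Rpl19 read 2451 and 2060 in GFP-positive cells, against 3183 and 2975 in GFP-negative cells (−0.45, −0.99 to 0.089). In neither did the groups overlap. Rpl14 was dimmer, at 112 and 165 in GFP-positive cells, against 168 and 216 in GFP-negative cells (−0.44, −1.10 to 0.23), and its higher GFP-positive array came close to its lower GFP-negative one. With 1 array left out its difference ran from −0.69 to −0.19.

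The brightest large subunit probe sets had differences below 0 that were smaller in size than the median of −0.20 over the 45 genes. Rpl38, a protein whose loss in mice disturbs the translation of Hox messages, read 6235 and 5476 in GFP-positive cells, against 6150 and 6595 in GFP-negative cells (−0.12). Rpl27a read 5596 and 4598 in GFP-positive cells, against 5232 and 5839 in GFP-negative cells (−0.12). Rpl13a, known outside the ribosome for silencing inflammatory messages in human myeloid cells, read 6167 and 4473 in GFP-positive cells, against 5834 and 6026 in GFP-negative cells (−0.17). In all 3 the groups overlapped, with replicate 1 slightly above 0 and replicate 2 below it. Rpl11, which with Rpl5 binds Mdm2 when ribosome assembly fails, read 2751 and 2464 in GFP-positive cells, against 3054 and 2811 in GFP-negative cells, with no overlap and like values of −0.15 and −0.19 in the 2 replicate numbers.

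Among small subunit genes the lowest after Rps25 was Rps19, the gene most often mutated in the human disease Diamond-Blackfan anaemia. It read 3286 and 2613 in GFP-positive cells, against 4019 and 4005 in GFP-negative cells, a difference of −0.45 (−1.01 to 0.11, adjusted p 0.420 by limma). Rps3, at the entry of the message channel, read 3574 and 2925 in GFP-positive cells, against 4395 and 4091 in GFP-negative cells (−0.39, −0.94 to 0.16). Rps26, another gene of that disease, read 3340 and 2857 in GFP-positive cells, against 3444 and 3732 in GFP-negative cells (−0.21). GFP-positive cells were lower without overlap in these 3 genes, by little in Rps26. Without the GFP-positive array of replicate 2 the difference was −0.29 for Rps19 and −0.25 for Rps3.

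Rps24, also linked to the same anaemia, read 5740 and 4666 in GFP-positive cells, against 5700 and 5674 in GFP-negative cells (−0.14). Rps14, whose loss in human cells disturbs red cell formation, read 4431 and 3418 in GFP-positive cells, against 4412 and 4173 in GFP-negative cells (−0.14). In both, the GFP-positive array of replicate 1 was level with the GFP-negative arrays and only that of replicate 2 was lower. Rps29 read 5647 and 5083 in GFP-positive cells, against 5557 and 6323 in GFP-negative cells (−0.15), and Rps28 lay at −0.087. Rps6, the substrate of the S6 kinases, read 431 and 551 in GFP-positive cells, against 504 and 514 in GFP-negative cells, and was the one gene of the 45 that was below 0 in replicate 1 (−0.22) and above 0 in replicate 2 (0.097).

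The paralogues apart from Rps27l gave no clear difference. Rpl22, which mice need for the development of alpha-beta T cells, read 4673 and 3710 in GFP-positive cells, against 4711 and 4617 in GFP-negative cells (−0.16, overlapping). Its paralogue Rpl22l1 read 2968 and 2944 in GFP-positive cells, against 3203 and 3565 in GFP-negative cells (−0.19, −0.71 to 0.32), lower without overlap. Rpl7l1 lay at −0.00052, with 0.44 within replicate 1 and −0.44 within replicate 2, and Rpl7 at −0.22. Rpl39, at the exit tunnel, read 107 and 18.4 in GFP-positive cells, against 94.7 and 104 in GFP-negative cells. Its difference of −0.82 was the lowest of the 45, yet its interval ran from −2.26 to 0.61 and the value rests on 1 GFP-positive array that was under the signal threshold, since without that array it was 0.096. Rpl39l, its testis paralogue, had 0.31 (−0.48 to 1.11) and Rpl37 had 0.43 (−0.29 to 1.15), both from 1 dim probe set. With 1 array left out Rpl39l ran from −0.076 to 0.70 and Rpl37 from 0.13 to 0.73.

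Within the 35 bright genes the shortfall shrank as the signal grew. In ranges chosen after seeing the data, the 4 genes of mean signal under 2000 had a median difference of −0.53, the 12 genes from 2000 to 4000 had −0.27, and the 19 genes above 4000 had −0.17. Across the 35 genes, which share the same 4 arrays and are not independent, mean log2 signal and difference had a Spearman correlation of 0.74, given as a description. The pattern did not extend to the 10 tested genes below the brightest bin. Their median was −0.057, with 0.25 within replicate 1 and −0.35 within replicate 2. Probe sets of 1 gene could be set side by side in 16 genes with more than 1 probe set in the bright range, and in 10 of these the brightest probe set was the least low. Rpl13a shows it best, with −0.17 for its brightest probe set and −0.47, −0.49 and −0.58 for the dimmer ones. The dimmest of them, which is below the bright range, read 591 and 519 in GFP-positive cells, against 903 and 769 in GFP-negative cells. Rps29 gave −0.15, −0.27 and −0.38 in the same order. Rps9 ran the other way, with −0.36 for the brighter probe set and −0.086 for the dimmer. So did Rpl7, Rps18 and Rps24, and by very little Rpl27 and Rps10. Over the 22 genes with more than 1 probe set above the threshold, all probe sets had 1 sign in 12.

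Probe sets that also name a pseudogene or a second gene were left out above, and many ribosomal protein genes are seen by these alone. There were 110 that listed a ribosomal protein gene of the pattern, 106 of them above the signal threshold. Their median difference was −0.17 (−0.0078 within replicate 1 and −0.36 within replicate 2). GFP-positive cells were lower without overlap in 43 of the 106 and higher in 4, where 18.7% and 28.7% of all tested genes were. In the brightest bin the shares were 32.8% and 16.8%. Such probe sets may read closely related sequences together. Of the ribosomal proteins that the symbol pattern misses, Rpsa and Fau were measured. Rpsa read 2644 and 2440 in GFP-positive cells, against 3065 and 3604 in GFP-negative cells (−0.39), and Fau 4429 and 3599 in GFP-positive cells, against 4530 and 4471 in GFP-negative cells (−0.17), both without overlap. Without the GFP-positive array of replicate 2 Fau had −0.023, and with the mean of its probe sets Rpsa had 0.13.

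Genes that use, build or regulate ribosomes gave no call in any list by limma. Their counts stand beside the shares of all tested genes, of which 18.7% were lower and 28.7% higher without overlap, and 4.37% lower and 10.2% higher at an unadjusted p under 0.05. The lists were not matched for brightness. In the brightest bin 32.8% of genes were lower and 16.8% higher without overlap. Of 32 translation initiation factors, 14 were lower (43.8%, against 18.7% of all) and 2 higher (6.25%, against 28.7% of all) without overlap (median −0.14), and 0 had an unadjusted p under 0.05. Eif4b, a helper of the helicase Eif4a1, read 1551 and 1473 in GFP-positive cells, against 2081 and 1955 in GFP-negative cells (−0.41), while the cap-binding Eif4e read 951 and 1029 in GFP-positive cells, against 781 and 733 in GFP-negative cells (0.38, or 0.21 with the mean of its probe sets). Of 15 elongation and termination factors, 8 were lower (53.3%, against 18.7% of all) and 0 higher without overlap (median −0.14). Gspt1, the release factor that works with Etf1, was the lowest, at 179 and 214 in GFP-positive cells, against 371 and 340 in GFP-negative cells (−0.81, adjusted p 0.241 by limma), yet the mean of its 6 probe sets gave −0.061. The brightest of them, Tpt1 and Eef1b2, whose messages carry TOP elements too, had −0.14 and −0.12 with overlap.

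Ribosome biogenesis factors had a median of −0.14 over 79 genes, with 23 lower (29.1%, against 18.7% of all) and 6 higher (7.59%, against 28.7% of all) without overlap. At an unadjusted p under 0.05 limma gave 3 lower, near the background of 4.37%, and 1 higher, below that of 10.2%. The higher one, the helicase Ddx56, was dim, at 34.7 and 69.9 in GFP-positive cells, against 7.24 and 20.2 in GFP-negative cells (1.19, or 0.57 with a pseudocount of 64). Rrp1b, a nucleolar protein, read 209 and 238 in GFP-positive cells, against 398 and 345 in GFP-negative cells (−0.69, or −0.079 with the mean of its 3 probe sets). Emg1, a methyltransferase of the small subunit's RNA, read 396 and 441 in GFP-positive cells, against 743 and 597 in GFP-negative cells (−0.65). The nucleolar chaperone Npm1 had −0.30 with overlapping groups. Of 23 genes of the RNA polymerase I and III machinery, which makes ribosomal and transfer RNA, limma put 4 lower (background 4.37%) and none higher (background 10.2%) at p 0.05 before adjustment (median −0.13). Polr1a, the large subunit of polymerase I, read 48.5 and 34.6 in GFP-positive cells, against 90.6 and 71.3 in GFP-negative cells (−0.76), and Polr3k 104 and 109 in GFP-positive cells, against 199 and 179 in GFP-negative cells (−0.74). With the mean of probe sets these were −0.31 and 0.30. In both lists the medians within replicate 1 and replicate 2 were alike, at −0.12 and −0.11 for biogenesis and −0.14 and −0.12 for the polymerases, which was not so for the ribosomal proteins. The 73 mitochondrial ribosomal proteins, which serve a separate ribosome, had a median of −0.080, with 15 lower (20.5%, near the 18.7% of all) and 10 higher (13.7%, against 28.7% of all) without overlap.

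**Figure D5:**
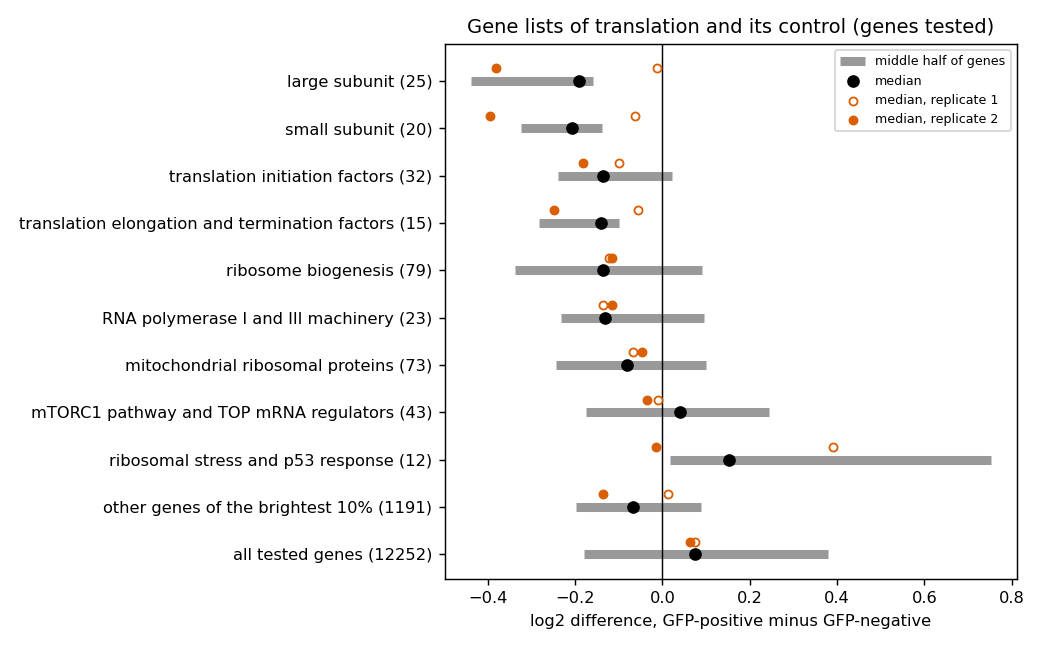
Log2 difference (GFP-positive minus GFP-negative) by gene list, with the number of tested genes in brackets. Black points are medians, grey bars run from the first to the third quartile, and orange points are medians within replicate 1 (open) and replicate 2 (filled). The medians of the 2 replicate numbers lie far apart for both ribosomal subunits. They do so too for the ribosomal stress and p53 list (0.39 and −0.014), and less for elongation and termination factors (−0.057 and −0.25). They lie close together for ribosome biogenesis, the polymerases and mitochondrial ribosomal proteins.

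The regulators of mTORC1 and of TOP messages had shares near those of all genes, with 11 of 43 higher (25.6%, against 28.7% of all) and 9 lower (20.9%, against 18.7% of all) without overlap (median 0.041). At an unadjusted p under 0.05 in the limma fit, 6 stood higher (background 10.2%) and 2 stood lower (background 4.37%). Rragd, a Rag GTPase that carries the amino acid signal to mTORC1, read 670 and 491 in GFP-positive cells, against 228 and 232 in GFP-negative cells (1.26, 0.66 to 1.86, adjusted p 0.167 by limma). Tbc1d7, the third subunit of the Tsc1-Tsc2 brake on mTORC1, read 80.4 and 84.3 in GFP-positive cells, against 32.6 and 33.1 in GFP-negative cells (1.01, adjusted p 0.181 by limma). Deptor, an inhibitor bound to mTOR, read 252 and 221 in GFP-positive cells, against 552 and 498 in GFP-negative cells (−1.10, −1.63 to −0.57, adjusted p 0.172 by limma). None of the 3 passed the adjusted threshold, and with the mean of probe sets the differences were closer to 0, at 0.41 for Rragd, 0.18 for Tbc1d7 and −0.52 for Deptor.

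The list of ribosomal stress and p53 response genes holds known p53 targets, to which Rps27l is added in human cells. Of 12 genes, 4 were higher (33.3%, near the 28.7% of all) and 1 lower (8.33%, against 18.7% of all) without overlap, and limma put 3 of them higher (background 10.2%) and none of them lower (background 4.37%) at p 0.05 before adjustment. Sesn2, a sensor of leucine and stress, read 87.3 and 90.0 in GFP-positive cells, against 42.7 and 25.6 in GFP-negative cells (1.08, 0.46 to 1.70, adjusted p 0.214 by limma), and 0.52 with the mean of its probe sets. Its relative Sesn1, known as a p53 target, read 1653 and 1353 in GFP-positive cells, against 964 and 1058 in GFP-negative cells (0.56, adjusted p 0.341 by limma). Eda2r, another p53 target, read 85.8 and 69.5 in GFP-positive cells, against 12.2 and 42.5 in GFP-negative cells (1.20, adjusted p 0.273 by limma), and without the GFP-negative array of replicate 1 it had 0.67. Ccng1, a further p53 target, ran the other way with −0.18 and no overlap. None of the 12 passed the adjusted threshold, and Sesn1 and Sesn2 stand in the mTORC1 list as well.

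Other measurements moved between the arrays beside these results. Gpr15 itself read 619 and 729 in GFP-positive cells, against 146 and 162 in GFP-negative cells (2.02, adjusted p 0.0829 by limma), in the direction of the sort. All 4 arrays had the same trimmed mean of 150.0, and their medians were 46.0 and 45.2 in GFP-positive cells, against 37.0 and 36.1 in GFP-negative cells. The X-linked Xist, made by female cells, read 4313 and 112 in GFP-positive cells, against 4172 and 55.1 in GFP-negative cells, and the Y-linked Eif2s3y read 5.08 and 2177 in GFP-positive cells, against 18.9 and 2329 in GFP-negative cells. The replicate numbers thus differed in these sex-linked signals, the same way in both groups. Summed signals of 7 CD4 T cell markers were 13934 and 12728 in GFP-positive cells, against 15305 and 14994 in GFP-negative cells. Those of 8 B and plasma cell markers were 13662 and 7846 in GFP-positive cells, against 7718 and 8919 in GFP-negative cells, with Igha and Jchain the brightest. Those of 11 epithelial markers were 2326 and 678 in GFP-positive cells, against 787 and 790 in GFP-negative cells, and those of 13 myeloid markers were 1720 and 2817 in GFP-positive cells, against 1398 and 1878 in GFP-negative cells. Stromal markers (8) summed to 649 and 965 in GFP-positive cells, against 467 and 1077 in GFP-negative cells, those of CD8 T and natural killer cells (6) to 592 and 815 in GFP-positive cells, against 1167 and 1025 in GFP-negative cells. The 2 red cell markers summed to 35.3 and 9.55 in GFP-positive cells, against 9.05 and 6.21 in GFP-negative cells. The ratio of 3′ to 5′ signal of the Gapdh control was 1.54 and 1.38 in GFP-positive cells, against 1.30 and 1.47 in GFP-negative cells. That of the Actb control was 3.91 and 4.90 in GFP-positive cells, against 2.59 and 4.60 in GFP-negative cells, higher in GFP-positive cells within both replicate numbers. The part of other cells, of sex and of RNA quality in the ribosomal protein values was not tested, and in sorted bulk RNA fewer cells of a type and less RNA per cell cannot be told apart.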

How the data were processed

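Per the labels' protocols, Trizol RNA was biotin-labelled for Affymetrix arrays. The values the authors deposited are linear probe set intensities; the software that made them is not given in the sources used here. From the values, each of the 4 arrays had the same mean of 150.0 after trimming 2% at each end, as 1 scale factor per array gives, and dim and bright ranges were left unaligned. Of 45101 probe sets, 64 were controls, 34945 others named 1 gene in the platform annotation, 932 several and 9160 none. Of the 34945, 34741 matched a RefSeq gene, and 0 were renamed.

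Values were tested as log2(intensity + 16), two-sided, with limma 3.58.1 in R 4.3.3 (lmFit and eBayes, group as the only term, 2 residual and 3.74 prior degrees of freedom), adjusted over 12252 genes brighter on average than 40% of probe sets (controls aside). Intervals are 95% intervals of that fit, with 2 arrays per group; the number of arrays limits the precision. Ribosomal protein genes named in the text were the 5 brightest and 5 dimmest tested, the 8 highest and 8 lowest differences, those at an unadjusted p under 0.05, paralogues with partners, stalk genes and a set of known genes; of other lists, mainly those of smallest p and highest signal. Members and lists were chosen with earlier results of these data known. Alternatives were other pseudocounts, scalings, filters, probe set rules, a replicate block, a trended prior and leaving out each array.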

Additional observations from a re-analysis of the deposited data

How the results depend on the processing

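No ribosomal protein gene was called by limma under any setting, 0 in each, while the smallest adjusted p ranged from 0.0719 (trended, robust prior) to 0.440 (without the GFP-positive array of replicate 2), and unadjusted p under 0.05 ran up to 18 genes lower (median scaling). The 4 calls over all genes became 0 with a pseudocount of 1, quantile or cyclic loess normalization, median scaling, no signal filter or any array left out (0 to 0), 175 with a pseudocount of 64, 8 with the mean of probe sets, 34 with scaling to added controls and 240 with a trended, robust prior. The cause was not tested. Median scaling moved the median of all genes to −0.20, and the medians to −0.52 for ribosomal protein genes, −0.51 and −0.53 for large and small subunit and −0.39 for the brightest 10% of genes. Leaving out 1 array gave medians of −0.35 to −0.10 for ribosomal protein genes, −0.33 to −0.073 for the large and −0.35 to −0.13 for the small subunit and −0.12 to −0.028 for the brightest 10% of genes. Genes lower without overlap numbered 40 with median scaling, 35 of 73 with several-symbol probe sets and 23 to 40 with 1 array left out. Those higher numbered 3 with no filter, 2 without cross-hybridising probe set types and 1 to 7 with 1 array left out. Fewer arrays make non-overlap easier to meet. The shares of all tested genes without overlap were not counted under these settings, so the counts cannot be read against a background. At an unadjusted p under 0.05 by limma, median scaling gave 2189 of 12252 tested genes in either direction.

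The labels do not say that equal replicate numbers share mice. Deviations of equally numbered arrays correlated at 0.20. With the replicate block 0 genes were called in all, 0 of them ribosomal protein genes, and the median stayed at −0.20.

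Of 813 values of 53 named genes under these settings, 26 in 14 genes reversed. With 1 array left out the range was −0.41 to 0.057 for Rpl13a, −0.33 to 0.00275 for Rpl22, −0.26 to 0.018 for Rpl27a, −1.75 to 0.096 for Rpl39, −0.46 to 0.012 for Rpl7, −0.33 to 0.046 for Rps14, −0.28 to 0.013 for Rps24, −0.65 to 0.54 for Rps27, −0.22 to 0.048 for Rps28 and −0.37 to 0.36 for Rpl7l1, with each of them above 0 without the GFP-positive array of replicate 2. It was −0.23 to 0.11 for Rps6 and −0.076 to 0.70 for Rpl39l. With the mean of probe sets Polr3k gave 0.30, Rpsa 0.13, Rpl27a 0.14, Rpl7l1 0.24, Rps24 0.028 and Rps6 0.085. Rps24 gave 0.010 without cross-hybridising types, Rps6 0.00537 and 0.00123 under quantile and loess normalization, and Rpl7l1 0.00388 with a pseudocount of 1 and 0.022 with scaling to controls. Rragd and Deptor passed the threshold with a pseudocount of 64 (1.12 and −0.97) and the trended, robust prior, and Gpr15 under these and control scaling.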
